A study of Mus musculus with 6 samples.

Results

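The genes described here are erythroid genes: transcription regulators, receptors, membrane proteins and enzymes that red cell precursors use, measured in stem and progenitor cells of Apcmin and wild-type (WT) mice. They came from a list of 30 symbols, and 29 of them were measured among the 18193 genes with a probe set annotated to exactly 1 symbol. Ahsp was not analysed here. The 29 genes had 48 such probe sets, and where a gene had several, the one with the highest mean over the 6 arrays stood for it. The mean over the arrays reached 6 on the log2 scale for 18 of the 29. No low-value filter was applied.

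RNA came from LKS+ cells, the lineage-negative, Sca-1 positive marrow fraction with high c-Kit, sorted in lots of at least 20000 per mouse at a purity above 90% per the labels' protocols. It was amplified linearly and hybridized to Affymetrix mouse arrays, 3 for Apcmin mice and 3 for WT mice. The Apcmin mouse carries the Min allele of Apc, a nonsense mutation in a tumour suppressor that restrains Wnt signalling, in all its tissues, and the series uses it to model MPD/MDS, the myeloproliferative and myelodysplastic disorders. Zygosity, age, sex, strain and treatment were not given in the sources used here, and each array was taken as 1 mouse.

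Red cell precursors arise from progenitors in which Gata1 becomes active with its cofactor Zfpm1 and with Klf1, and these regulators switch on the erythropoietin receptor, iron uptake, heme and globin synthesis and the proteins of the red cell membrane. In the membrane, band 3 (Slc4a1) and the Rh complex (Rhag and Rhd) are anchored to a spectrin skeleton through ankyrin and protein 4.2. LKS+ cells stand before erythroid commitment, although some of these genes, such as Gata1, Car1 and Epor, are known to be transcribed in subsets of early progenitors.

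The 6 arrays were alike in overall scale, with median log2 intensities between 4.12 and 4.18 and 33.3% to 34.5% of probe sets at 6 or above. Genes of the sorted population were bright in both genotypes: Kit averaged 9.87 ± 0.18 in Apcmin and 9.79 ± 0.18 in WT, and Cd34 10.94 ± 0.11 in Apcmin and 10.94 ± 0.05 in WT (log2 intensity, SD, n = 3 each). Apc itself averaged 7.80 ± 0.09 in Apcmin and 7.72 ± 0.09 in WT, a difference of 0.08 with a limma adjusted p of 0.963. The Min allele is a point mutation that leaves a transcript, so this level does not check the labels. The arrays did split on sex-linked genes. In Apcmin replicate 2 and in WT replicate 3, Xist stood at 3.14 and 2.48, while the other 4 arrays had between 10.63 and 10.74. The Y-linked genes Eif2s3y, Kdm5d and Uty were high in the same pair of arrays, with Eif2s3y at 9.39 in Apcmin replicate 2 and 9.20 in WT replicate 3 and at most 1.58 elsewhere.

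Most erythroid genes moved together from array to array, with swings inside each genotype. In all, 22 of 29 genes had their 2 lowest values in Apcmin replicate 2 and WT replicate 3, a pattern shown by 10.4% of all 18193 genes and by 6.68% of those with a mean of at least 6. This pair of arrays was singled out after the values had been seen. The median deviation of the 29 genes from their own 6-array means was 0.34, -0.57 and 0.51 in Apcmin replicates 1 to 3, against 0.41, 0.07 and -0.82 in WT replicates 1 to 3. Each genotype therefore held 1 low array, and the genotypes overlapped. Between their highest and lowest array, 22 of 29 genes spanned at least 1 log2 unit, which is 2-fold, as did 21.6% of all genes and 9.08% of genes with a mean of at least 6. The median within-genotype SD was 0.65 for the 29 genes and 0.24 for all genes.

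**Figure D1:**
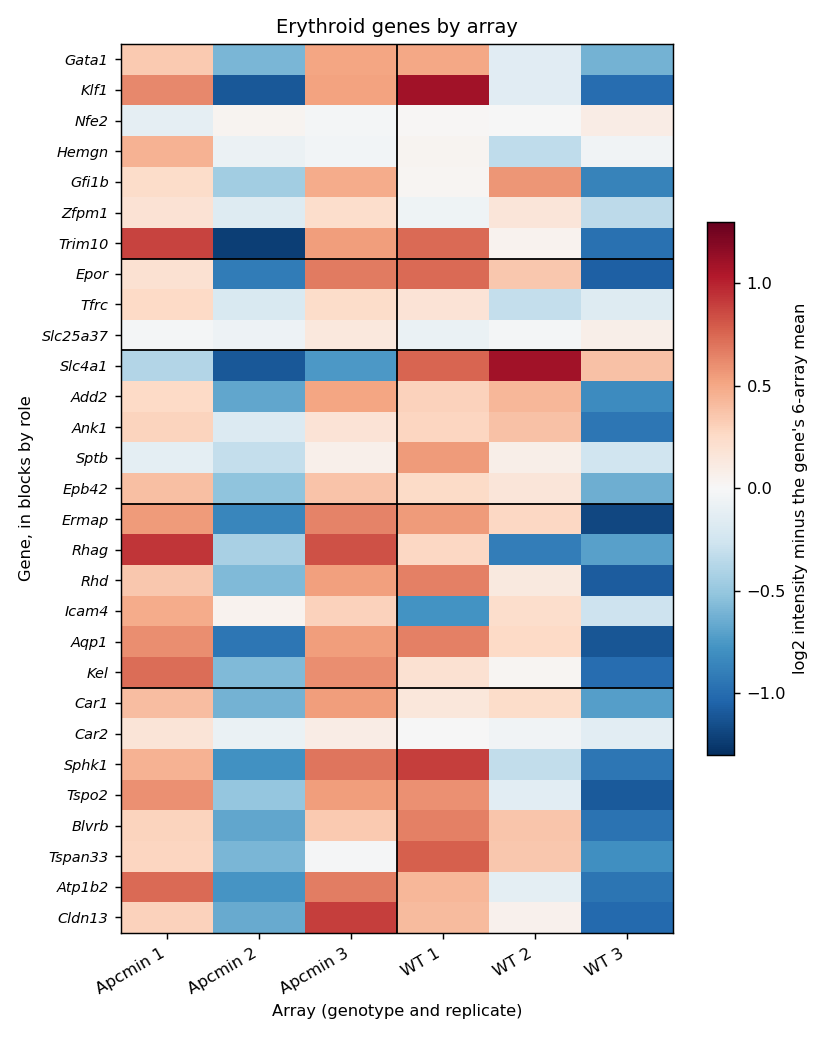
Deviation of each of the 29 erythroid genes (rows, in blocks by role) from its own mean over the 6 arrays, in log2 intensity, with the 3 Apcmin arrays left of the 3 WT arrays. The columns of Apcmin replicate 2 and WT replicate 3 are below the mean for most genes, and the row of Slc4a1 instead splits by genotype.

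The 2 arrays with low erythroid values were the 2 with low Xist and high Y-linked genes, and the part of sex-linked expression in the erythroid differences was not tested. Since these are bulk samples, fewer cells with erythroid transcripts and less erythroid RNA per cell cannot be told apart. Lists of other cell types were set beside the erythroid genes on the same arrays. Counts of genes lowest in this pair stand beside 10.4% of all genes and 6.68% of those with a mean of at least 6. The stem cell and early progenitor list (15 of 16 genes measured) had 0 genes lowest in that pair and 3 of 15 highest there, where 5.9% of all genes were, and its summed linear intensity ran from 13287 to 14066 in Apcmin and from 12552 to 13706 in WT. Flt3, the progenitor cytokine receptor, named here after its values were seen, was highest in the pair, at 10.03, 10.24 and 9.91 in Apcmin, against 9.74, 9.99 and 10.31 in WT. Over the erythroid genes the sum ran from 9971 to 15017 in Apcmin and from 9568 to 14392 in WT. The granulocyte and monocyte list (19 of 20) also had 0 genes lowest in the pair, with sums from 25606 to 27243 in Apcmin and from 27209 to 28707 in WT. In the mast cell and basophil list (14 of 15) and in the lymphoid list (20 of 22) 2 genes each were lowest there. The megakaryocyte and platelet list (18 of 20), whose lineage shares Gata1 with the erythroid one, had 6 such genes. Among them was the platelet chemokine Pf4, at 8.29, 7.13 and 7.98 in Apcmin, against 8.41, 8.66 and 7.43 in WT. Most genes of that list were not lowest there. One was the integrin gene Itga2b, at 5.99, 6.26 and 6.58 in Apcmin, against 6.17, 6.26 and 6.55 in WT. The part of these cell types in the erythroid differences was not tested.

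**Figure D2:**
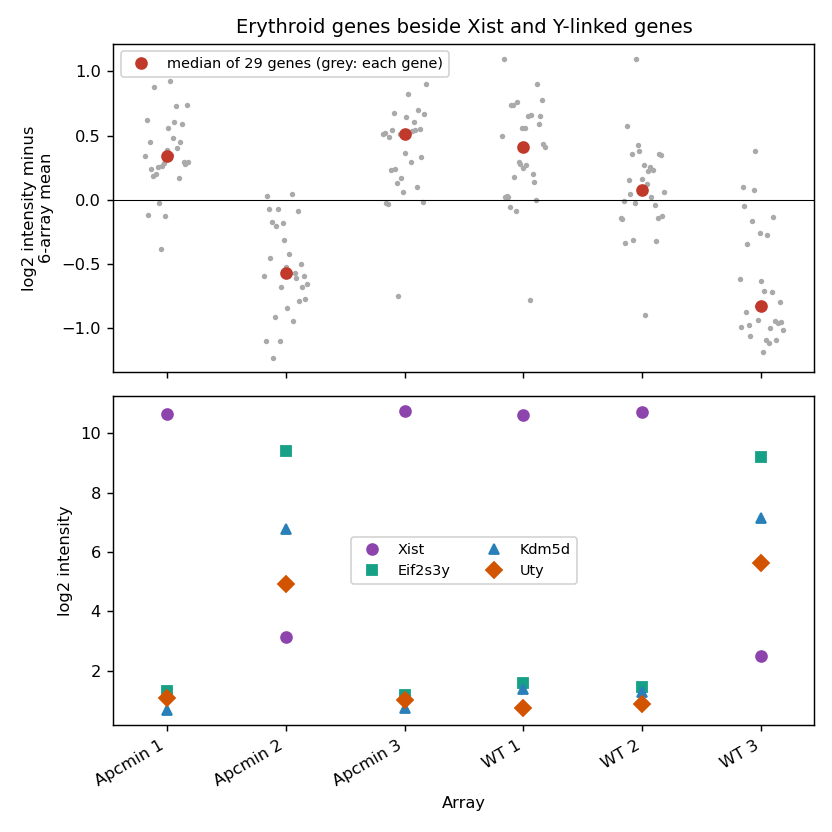
Upper panel: deviation of each erythroid gene (grey) from its 6-array mean and the median of the 29 genes (red), per array, in log2 intensity. Lower panel: log2 intensity of Xist, Eif2s3y, Kdm5d and Uty on the same arrays. The medians of -0.57 in Apcmin replicate 2 and -0.82 in WT replicate 3 stand over the low Xist values of 3.14 and 2.48.

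Correlations between pairs of genes describe the same co-variation. Over the 6 arrays the 406 pairs of erythroid genes had a median Pearson r of 0.77, and 47.8% of pairs exceeded 0.8. Pairs of an erythroid gene with any other gene had a median r of 0.07, and 3.32% of them exceeded 0.8. With each genotype's mean removed the medians were 0.84 between erythroid genes and 0.11 with other genes. Without Apcmin replicate 2 and WT replicate 3, the median over the 4 remaining arrays was 0.21 between erythroid genes and -0.05 with other genes, so the high r rested on those arrays. All pairs share the same arrays, so these values carry no p.

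**Figure D3:**
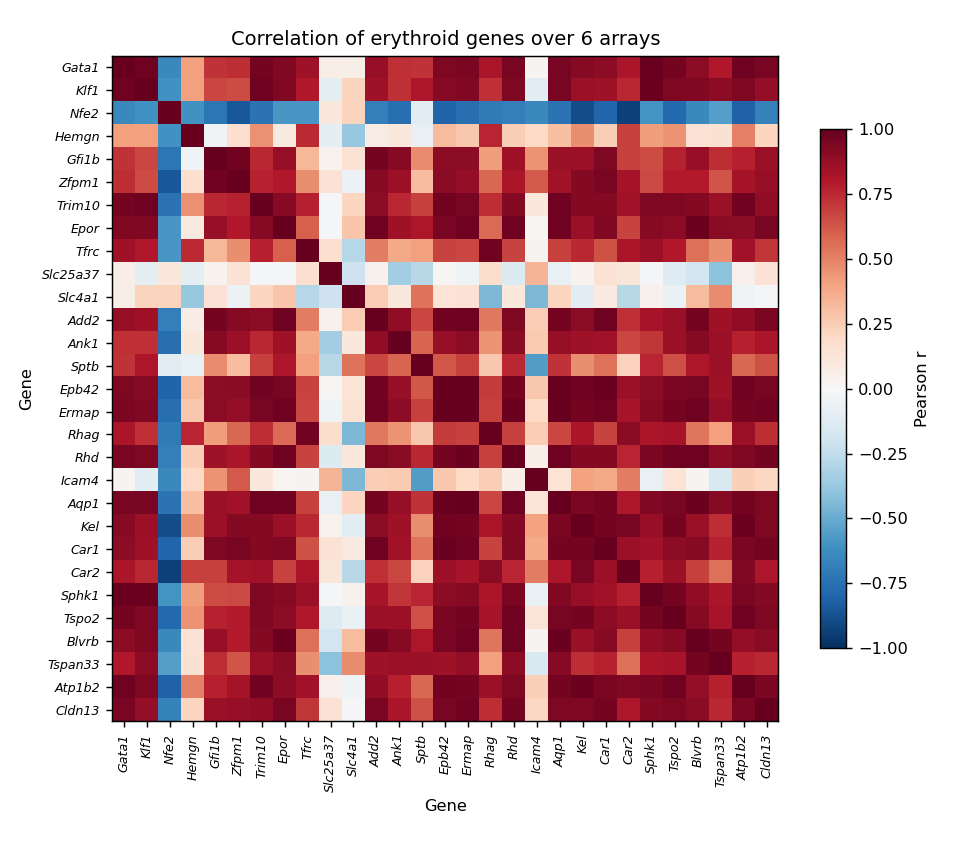
Pearson r of log2 intensity over the 6 arrays for each pair of the 29 erythroid genes, ordered by role. Most pairs are positive, with a median of 0.77; the rows of Slc25a37, Slc4a1 and Icam4 are pale, and that of Nfe2 is mostly negative.

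The water channel Aqp1 followed the mean of the other erythroid genes most closely, with r = 0.996, ahead of the membrane protein Ermap at 0.995 and the protein 4.2 gene Epb42 at 0.990. At the other end Nfe2 had r = -0.748, Slc25a37 -0.037, Slc4a1 0.084, Icam4 0.117 and Hemgn 0.312. Rhag and Tfrc stood between, at 0.692 and 0.714. These 7 genes were the ones without both low arrays at the bottom.

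To set sequence beside the genes that moved together, the 250 bases before each RefSeq start (GRCm38.p6) were searched for the hexamers AGATAA with its variant AGATAG, plus those that begin with T, namely TGATAA along with TGATAG, the core bound by GATA factors, on both strands, counting overlapping matches. At least 1 match was found for 14 of the 21 erythroid genes in the table (66.7%), and for 29.7% of all 27025 genes in it. That count takes in genes that followed the array pattern and genes that did not, and Slc4a1 had no window. A match is only a run of letters. The windows of Hemgn, Icam4 and Rhag, which did not share the array pattern, held one too. Those of Tfrc, which did not share it either, held 0. Counts cover the whole window before each start, including bases that lie inside the annotated gene, where the Rhag match falls. Windows are shown for Klf1, the regulator with the widest span between arrays, for the receptor gene Epor, for Ermap and Kel as blood group genes with 1 and 2 matches, and for Aqp1 as the closest follower, whose window had 0. Capitals mark the matches, written 5′ to 3′ on the gene's strand, and bases inside the annotated gene are not printed.
Klf1 (chr8:84901732-84901981, plus strand): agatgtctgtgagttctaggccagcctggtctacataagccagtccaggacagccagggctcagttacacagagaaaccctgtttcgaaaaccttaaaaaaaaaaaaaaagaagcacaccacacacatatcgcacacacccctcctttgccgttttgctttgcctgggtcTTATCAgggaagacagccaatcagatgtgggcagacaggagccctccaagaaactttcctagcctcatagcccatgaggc
Epor (chr9:21963577-21963826, minus strand): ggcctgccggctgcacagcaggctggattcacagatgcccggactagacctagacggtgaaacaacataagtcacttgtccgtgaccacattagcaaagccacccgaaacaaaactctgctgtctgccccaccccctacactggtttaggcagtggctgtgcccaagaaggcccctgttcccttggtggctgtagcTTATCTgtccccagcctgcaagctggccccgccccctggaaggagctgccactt
Ermap (chr4:119190014-119190245, minus strand): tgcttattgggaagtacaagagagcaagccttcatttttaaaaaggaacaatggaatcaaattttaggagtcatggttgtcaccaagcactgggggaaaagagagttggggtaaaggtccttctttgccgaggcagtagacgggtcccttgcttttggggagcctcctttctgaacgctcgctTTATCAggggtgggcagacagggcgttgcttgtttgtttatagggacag
Kel (chr6:41704335-41704575, minus strand): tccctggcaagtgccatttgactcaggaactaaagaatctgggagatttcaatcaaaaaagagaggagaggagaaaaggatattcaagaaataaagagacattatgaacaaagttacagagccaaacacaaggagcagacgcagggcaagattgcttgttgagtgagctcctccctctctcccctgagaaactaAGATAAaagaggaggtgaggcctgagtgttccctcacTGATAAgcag
Aqp1 (chr6:55336049-55336298, plus strand): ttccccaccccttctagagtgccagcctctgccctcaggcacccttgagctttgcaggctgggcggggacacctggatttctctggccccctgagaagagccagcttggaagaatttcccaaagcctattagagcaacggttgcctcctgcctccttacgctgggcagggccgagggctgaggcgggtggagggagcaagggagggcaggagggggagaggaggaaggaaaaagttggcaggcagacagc

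Comparing Apcmin with WT asks whether the mutation shifts erythroid transcripts in this population. None of the 29 genes passed the limma test, which called 0% of 45037 probe sets at an adjusted p of 0.05, the smallest adjusted p being 0.954. Without adjustment 1714 probe sets had p under 0.05. Among the erythroid genes 1 did, against 3.11% of all genes: 0 were higher in Apcmin (1.22% of all genes) and 1, Slc4a1, was lower (1.89%). The mean was higher in Apcmin for 23 of the 29 genes, where 43.0% of all genes were higher, and the median difference was 0.17 for the erythroid genes and -0.04 for all genes (log2, Apcmin minus WT). That count rested on single arrays: without WT replicate 3, 9 genes were higher and the median difference was -0.13, and without Apcmin replicate 3, 12 were higher with a median of -0.01. Without Apcmin replicate 2, 26 were higher with a median of 0.45. No erythroid gene had all Apcmin arrays above all WT arrays, as 2.97% of all genes did, and 1, Slc4a1, had all of them below, as 4.76% did. With Apcmin replicate 2 and WT replicate 3 both left out, 22 were higher (42.4% of all genes), the median difference was 0.16, and 15 did not overlap between genotypes, where 44.7% of all genes did not. Non-overlapping genes numbered 12 without Apcmin replicate 2 alone (17.2% of all genes) and 4 without WT replicate 3 alone (32.8%). An unadjusted p under 0.05 was reached by 3 erythroid genes with both arrays left out (8.75% of all genes) and by 2 with a Y-linked covariate (4.09%).

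**Figure D4:**
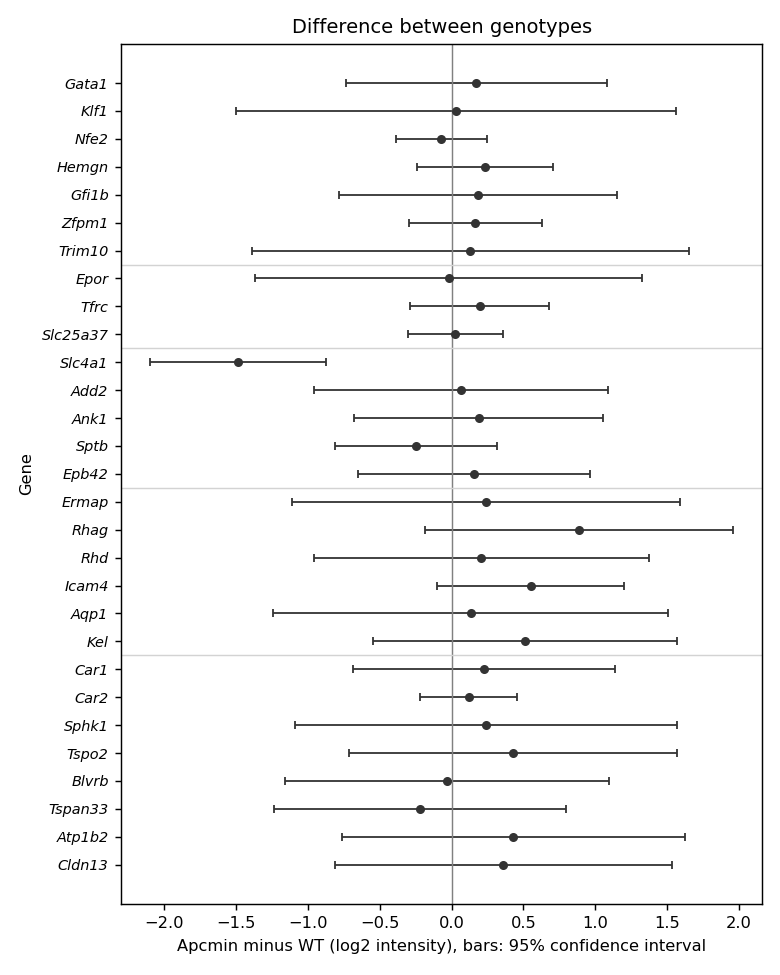
Difference in mean log2 intensity, Apcmin minus WT, of each erythroid gene with its 95% confidence interval from limma (n = 3 arrays each), in blocks by role. The interval of Slc4a1, from -2.10 to -0.88, lies left of 0, and those of the other 28 genes include 0.

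Slc4a1 encodes band 3, the chloride and bicarbonate exchanger of the red cell membrane. By the probe set that stood for each gene, Slc4a1 was the 1 gene here whose genotypes stood apart. Its brightest probe set read 3.34, 2.62 and 2.97 in Apcmin replicates 1 to 3, against 4.48, 4.81 and 4.10 in WT. All 3 Apcmin arrays lay below all 3 WT arrays. The means were 2.98 ± 0.36 in Apcmin and 4.46 ± 0.36 in WT (SD, n = 3 each). The difference was -1.49 with an SE of 0.26, or 0.357 times the WT intensity, and its limma adjusted p was 0.954. All 3 Apcmin values and that of WT replicate 3 lay below the array medians of 4.12 to 4.18, where no detection call marks which probe sets exceed background. With values under 4 set to 4, the difference was -0.46, and with a pseudocount of 16 it was -0.67. A second probe set, whose suffix _x_at marks probes that can also match other transcripts, read 3.25, 2.44 and 1.99 in Apcmin, against 3.53, 4.23 and 3.85 in WT, and also did not overlap. The third read 2.02, 2.70 and 2.23 in Apcmin, against 2.46, 3.01 and 2.25 in WT, and did. Leaving out any 1 array kept the Slc4a1 difference between -1.67 and -1.31, and it was -1.49 without both Apcmin replicate 2 and WT replicate 3.

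Rhag encodes the Rh-associated glycoprotein, the ammonia or gas channel subunit without which the Rh complex does not reach the red cell surface. It stood at 6.15, 4.80 and 6.05 in Apcmin, against 5.49, 4.33 and 4.51 in WT. Apcmin replicates 1 and 3 lay above all WT arrays, and Apcmin replicate 2 lay below WT replicate 1, so the genotypes overlapped. The means were 5.67 ± 0.75 in Apcmin and 4.78 ± 0.63 in WT (SD, n = 3 each). The difference was 0.89 with an SE of 0.45, a 95% interval from -0.18 to 1.96 and a limma adjusted p of 0.954. The difference ranged from 0.65 to 1.32 when 1 array was left out, and was 1.19 without both Apcmin replicate 2 and WT replicate 3 (95% interval 0.10 to 2.27, limma adjusted p 0.526).

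The correlation of Slc4a1 with Rhag over the 6 arrays was negative and did not pass its test. Pearson's r was -0.45 and Spearman's rho -0.49, with p = 0.331 and p = 0.356 in two-sided exact permutation tests over 720 pairings, each 0.356 after Benjamini-Hochberg adjustment over the 2. Without Apcmin replicate 2 and WT replicate 2, the arrays farthest from the Slc4a1 median, r was -0.67 over 4 arrays. Single arrays moved r, to -0.80 without Apcmin replicate 2 and to -0.17 without WT replicate 2, and it was -0.88 without Apcmin replicate 2 and WT replicate 3. With each genotype's mean removed r was 0.43, the opposite sign.

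**Figure D5:**
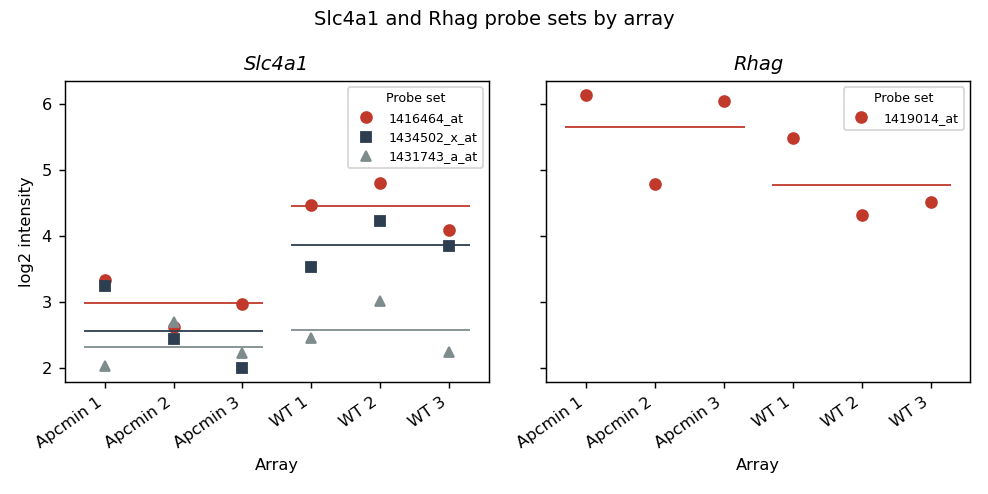
Log2 intensity of the 3 Slc4a1 probe sets and the Rhag probe set on each array, with Apcmin left of WT and a line at each genotype mean. The brightest Slc4a1 probe set (red) lies between 2.62 and 3.34 in Apcmin and between 4.10 and 4.81 in WT, while Rhag values of the genotypes overlap.

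Among the regulators, 6 of 7 had a higher mean in Apcmin (43.0% of all genes) and 5 of 7 followed the array pattern (10.4% of all genes). Without WT replicate 3 the differences turned to -0.09 for Gata1, -0.46 for Klf1, -0.21 for Gfi1b and -0.32 for Trim10. Those of Zfpm1 and Hemgn stayed positive, although the other Zfpm1 probe set had -0.11 over all arrays. Gata1, the zinc finger factor needed for red cell maturation, read 7.97, 7.03 and 8.14 in Apcmin, against 8.12, 7.48 and 7.01 in WT. Klf1, which activates adult beta globin and membrane genes, read 8.77, 7.06 and 8.67 in Apcmin, against 9.25, 8.005 and 7.16 in WT. Both genes had the same 2 low arrays, and Klf1 spanned 4.57-fold between arrays while its genotype means differed by 0.03 with an SE of 0.64. Trim10, a RING finger protein of terminal erythroid cells, read 4.56, 2.46 and 4.23 in Apcmin, against 4.42, 3.73 and 2.72 in WT, a 4.29-fold span. The repressor Gfi1b read 8.10, 7.41 and 8.35 in Apcmin, against 7.89, 8.43 and 6.99 in WT. Zfpm1, the Gata1 cofactor also called Fog1, was flatter, from 5.78 to 6.18 in Apcmin and from 5.61 to 6.11 in WT. Nfe2 and Hemgn did not follow. Nfe2, a leucine zipper factor that megakaryocytes also need, read 9.89, 10.04 and 9.98 in Apcmin, against 10.03, 9.998 and 10.11 in WT, and was the 1 gene highest in the pair of arrays where the others were lowest (5.9% of all genes were). Hemgn, a nuclear protein of blood progenitors, lay between 8.36 and 8.88 in Apcmin and between 8.10 and 8.47 in WT.

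Of the 3 receptors and iron importers only Epor had its lowest values in Apcmin replicate 2 and WT replicate 3. Epor, the receptor for erythropoietin, read 6.17, 5.06 and 6.64 in Apcmin, against 6.71, 6.32 and 4.91 in WT. Its genotype difference was -0.02 with an SE of 0.57 (limma adjusted p 0.998). Tfrc, the transferrin receptor through which all dividing cells take up iron, lay between 10.49 and 10.95 in Apcmin and between 10.38 and 10.87 in WT. Slc25a37, or mitoferrin 1, which carries iron into mitochondria, spanned 0.22 over all arrays and differed by 0.02 between genotypes, a sign that turned to -0.0019 after further quantile normalization.

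The membrane skeleton genes were dim, with 0 of 5 at a mean of 6 or above, and apart from Slc4a1 they followed the array pattern. Add2 encodes beta adducin, which caps actin, and read 5.005, 4.06 and 5.26 in Apcmin, against 5.04, 5.17 and 3.92 in WT. Its genotype difference of 0.06 turned to -0.0071 after further quantile normalization. Ank1, the ankyrin that ties band 3 to spectrin, read 5.83, 5.36 and 5.72 in Apcmin, against 5.82, 5.92 and 4.61 in WT. Its difference of 0.19 rested on the chosen probe set, since 0 of the 3 others had the same sign. Sptb, beta spectrin, lay between 3.72 and 4.09 in Apcmin and between 3.77 and 4.59 in WT, with a difference of -0.25. Epb42 read 3.63, 2.71 and 3.61 in Apcmin, against 3.48, 3.40 and 2.61 in WT, a difference of 0.15. A dimmer Epb42 probe set had the opposite sign, -0.13, with all Apcmin arrays below all WT arrays. Over the 5 genes the median difference was 0.06 and the mean -0.27, opposite signs, with Slc4a1 at -1.49.

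All 6 genes of the Rh complex and blood group proteins averaged higher in Apcmin than in WT, as did 43.0% of all genes. Their median difference was 0.37, and 4 of them followed the array pattern (10.4% of all genes). Ermap carries the Scianna antigens and read 9.64, 8.24 and 9.72 in Apcmin, against 9.63, 9.35 and 7.90 in WT. Aqp1, the water channel with the Colton antigens, read 9.19, 7.65 and 9.13 in Apcmin, against 9.25, 8.85 and 7.48 in WT. The 2 genes kept nearly the same profile, high in 4 arrays and over 1 unit lower in the pair, with no separation of genotypes. Rhd, the Rh protein that partners Rhag, read 7.65, 6.73 and 7.83 in Apcmin, against 7.96, 7.43 and 6.22 in WT. Kel, a membrane metalloprotease, read 6.46, 5.16 and 6.34 in Apcmin, against 5.93, 5.76 and 4.74 in WT. Its difference was 0.51 with an SE of 0.45, and 0.56 without both low arrays (95% interval 0.07 to 1.04, limma adjusted p 0.526). Icam4, the Landsteiner-Wiener adhesion protein, did not follow the pattern and read 6.49, 6.06 and 6.30 in Apcmin, against 5.23, 6.24 and 5.74 in WT. Its lowest value was WT replicate 1, and its difference was 0.55 with an SE of 0.27 and a limma adjusted p of 0.954. The sign of 3 of these differences turned when WT replicate 3 was left out, to -0.29 for Ermap, -0.29 for Rhd and -0.39 for Aqp1.

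The remaining 8 genes, enzymes and other membrane proteins, all had their lowest values in Apcmin replicate 2 and WT replicate 3, as did 10.4% of all genes. Car1, the carbonic anhydrase of early erythroid cells, read 11.20, 10.19 and 11.34 in Apcmin, against 10.94, 11.03 and 10.08 in WT. Car2, the other red cell carbonic anhydrase, spanned only 0.30, from 11.86 to 12.12 in Apcmin and from 11.81 to 11.94 in WT. Blvrb, the biliverdin reductase B that also reduces flavins, read 9.46, 8.49 and 9.50 in Apcmin, against 9.82, 9.52 and 8.21 in WT. These profiles differ in depth but not in which arrays were lowest. Sphk1, which makes the sphingosine 1-phosphate that red cells store, read 6.35, 5.11 and 6.59 in Apcmin, against 6.80, 5.58 and 4.96 in WT. Tspo2, an erythroid membrane protein of the translocator family, read 6.60, 5.51 and 6.56 in Apcmin, against 6.60, 5.87 and 4.92 in WT. Atp1b2, a beta subunit of the sodium pump, read 6.93, 5.42 and 6.86 in Apcmin, against 6.62, 6.06 and 5.24 in WT. Genotype differences of these 8 lay between -0.22 for the tetraspanin Tspan33 and 0.43 for Tspo2 and Atp1b2, with limma adjusted p from 0.954 to 0.997. Tspan33 read 8.19, 7.32 and 7.89 in Apcmin, against 8.69, 8.26 and 7.12 in WT, and 3 of 3 other probe sets of it had the same sign. Cldn13, a claudin of mouse erythroid cells, read 7.02, 6.07 and 7.63 in Apcmin, against 7.14, 6.79 and 5.72 in WT.

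Other erythroid genes, from a separate list of 65 of which 55 were measured, divided into 30 higher and 25 lower in Apcmin. Their median difference was 0.01, and 0 passed the limma test. The array pattern was present in 23 of the 55 (10.4% of all genes). All Apcmin arrays lay above all WT arrays in 1 of the 55 (2.97% of all genes) and below them in 3 (4.76%). Tal1, Lmo2 and Gata2, factors that precede Gata1 in blood progenitors, averaged 9.09 ± 0.23, 11.53 ± 0.07 and 10.63 ± 0.06 in Apcmin, against 9.01 ± 0.10, 11.48 ± 0.05 and 10.55 ± 0.09 in WT (SD, n = 3 each). None of these 3 followed the pattern. Globin probe sets can bind near-identical copies, so their gene names are uncertain. Of them, Hba-a2 read 10.31, 10.23 and 10.15 in Apcmin, against 9.98, 10.23 and 10.33 in WT, and did not follow the pattern. Hbb-b2 did, at 5.60, 4.57 and 5.82 in Apcmin, against 5.30, 5.36 and 4.91 in WT. A brighter probe set annotated to 4 symbols, Hbb-bt among them, also did. It read 9.39, 8.85 and 9.79 in Apcmin, against 9.20, 9.26 and 8.88 in WT. Bpgm, which makes the 2,3-bisphosphoglycerate of red cells, had all Apcmin arrays above WT, at 8.54, 8.75 and 8.61 in Apcmin, against 8.52, 8.27 and 8.31 in WT (limma adjusted p 0.954). Hba-a1 and the glucose transporter gene Slc2a4 had all Apcmin arrays below WT, with differences of -0.45 and -0.44 at log2 levels under 4. In heme synthesis, 5 of the 8 measured genes followed the array pattern, among them Alas1 and Urod. The erythroid first enzyme Alas2 did not, at 1.70, 2.36 and 1.91 in Apcmin, against 2.12, 2.08 and 2.24 in WT.

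Outside the 29 erythroid genes, those most like their mean over the 6 arrays were Mt1 with r = 0.989, Col5a1 and Pklr with 0.986, Ces2g with 0.984, Aldh1a1 with 0.982, St3gal5 with 0.980, Asns with 0.979 and C1qtnf12 with 0.977. They were the 8 highest of 4035 genes with a mean of at least 6 and a range of at least 0.5, of which 1.16% exceeded 0.9. Pklr, the pyruvate kinase of liver and red cells, belongs to the separate list of other erythroid genes. It read 8.76, 7.28 and 9.13 in Apcmin, against 9.24, 8.37 and 6.94 in WT. Because Pklr was picked by its likeness to that mean, its low values in Apcmin replicate 2 and WT replicate 3 are no separate observation.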

How the data were processed

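Affymetrix mouse arrays measured RNA of LKS+ cells, 3 from Apcmin and 3 from WT mice, grouped by the genotype in the labels. The deposited values are linear intensities, normalized by the authors with RMA per the submitters' processing notes (version not given in the sources used here). Log2 was taken without a pseudocount, as planned for linear values. From 45101 probe sets 64 controls were dropped, leaving 45037. Symbols came from GEO's platform annotation, checked by Entrez identifier against RefSeq (GRCm38.p6), where 34741 matched and 0 changed. A single symbol belonged to 34945 probe sets, while 932 had several and 9160 had none.

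Apcmin was compared with WT in limma 3.58.1 (R 4.3.3) by lmFit and eBayes on genotype alone, with Benjamini-Hochberg adjustment over the 45037 probe sets and a threshold of 0.05. The fit was tested on simulated data. Correlations were computed in Python 3.11.15 with scipy 1.17.1. No label names the animals, so p-values measure the spread between these samples, and the number of arrays limits the precision: 3 against 3 can reach no exact permutation p below 0.1. The erythroid genes and all lists were chosen with earlier results of these data known. All erythroid genes could be named. Of the other lists, the rule allowed the 2 genes with the smallest p in each direction, a fixed set of lineage genes, and the 8 genes most like the erythroid mean. Pf4, Itga2b, Tal1, Lmo2, Gata2, Kit, Cd34, Hbb-bt and Apc belong to the fixed set. Hba-a2 and Hbb-b2 were not in the fixed set as planned. The sex-linked genes were added after the values were seen. The labels do not say whether shared replicate numbers pair the arrays, and the main fit left them unpaired. Deviations of same-numbered arrays correlated at -0.03, -0.07 and -0.26. The arrays with low erythroid values carry different numbers, 2 in Apcmin and 3 in WT, so these correlations cannot exclude a pairing. Alternatives were further quantile normalization, filters on dim probe sets, a floor at 4, a pseudocount of 16, the mean of a gene's probe sets, a mean-variance trend, array weights, a replicate block and each array left out in turn. A Y-linked covariate and the removal of Apcmin replicate 2 with WT replicate 3 were chosen after seeing the data.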

Additional observations from a re-analysis of the deposited data

How the results depend on the processing

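No probe set passed the adjusted limma test under any of the alternatives run. The number of probe sets with unadjusted p under 0.05, 1714 as reported, was 486 with a mean of at least 6, 757 with a mean at or above the median, 911 with a floor at 4, 695 with gene means, 2717 with array weights and 4272 without Apcmin replicate 2 and WT replicate 3. It ranged from 1267 to 5864 when 1 array was left out, the highest without WT replicate 3. Fewer features were tested under the filters and with gene means, so those counts are not on the same base as 1714. The cause of the changes was not tested.

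Of the 18 erythroid genes with a mean of at least 6, 15 were higher in Apcmin. Leaving out 1 array gave 9 to 26 of 29 genes higher and a median difference from -0.13 to 0.45. Erythroid genes with unadjusted p under 0.05 numbered 0 under both filters, which drop Slc4a1, and 0 with the floor, 2 with the Y-linked covariate (4.09% of all genes), 3 without the 2 arrays (8.75%) and 1 to 2 with 1 array left out (1.97% to 12.9%, the highest without WT replicate 3). Genes whose genotypes did not overlap numbered 0 under both filters, 15 without the 2 arrays (44.7% of all genes) and 1 to 12 with 1 array left out. These were 12 without Apcmin replicate 2 (17.2%), 4 without WT replicate 3 (32.8%), 1 each without Apcmin replicate 1 (14.3%) or 3 (16.9%), and 2 each without WT replicate 1 (13.8%) or 2 (15.1%). In the replicate block fit 23 genes were higher with a median of 0.17, 2 had unadjusted p under 0.05 (2.22% of all genes), 1398 probe sets did, and 0 passed adjustment, so the block changed no call. The median pairwise r was 0.21 without the 2 arrays and 0.68 to 0.87 with 1 array left out. For Slc4a1 with Rhag, r was -0.88 without the 2 arrays, 0.43 with genotype means removed and -0.80 to -0.17 with 1 array left out.

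Signs of single genes turned under few settings other than leaving out an array: Add2 (-0.0071) and Slc25a37 (-0.0019) with quantile normalization, Add2 (-0.0596) and Gfi1b (-0.0032) with array weights, Ank1 with gene means (-0.0619) and without the 2 arrays (-0.10), and Klf1 (-0.0302) with the Y-linked covariate. Epb42 was at the floor on all arrays and had no value there. With 1 array left out, differences ranged over 0 in 18 genes: Gata1 from -0.0912 to 0.51, Klf1 from -0.46 to 0.59, Epor from -0.56 to 0.43, Car1 from -0.0757 to 0.59, Ermap from -0.29 to 0.72, Rhd from -0.29 to 0.58, Sphk1 from -0.17 to 0.75, Tspo2 from -0.012 to 0.83, Blvrb from -0.52 to 0.30, Aqp1 from -0.39 to 0.64, Add2 from -0.33 to 0.42, Ank1 from -0.23 to 0.42, Epb42 from -0.13 to 0.45, Tspan33 from -0.67 to 0.11, Gfi1b from -0.21 to 0.52, Trim10 from -0.32 to 0.77, Cldn13 from -0.0554 to 0.78 and Slc25a37 from -0.035 to 0.0681. Signal over background limits Slc4a1 and the other dim genes.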
